A study of Rattus norvegicus with 3 samples.

Results

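Pou3f4, Tbx18, Tbx15, Dlx5, Dlx6 and Sox9 are 6 transcription factor genes of the mesenchyme around the inner ear and of the skeleton. They were listed by name, with earlier results of these data known, and 5 of the 6 had a row among the 32623 genes measured. Dlx6 matched no gene name and was not analysed here. The identifiers of the other genes were ENSRNOG00000002784 for Pou3f4, ENSRNOG00000010685 for Tbx18, ENSRNOG00000019565 for Tbx15, ENSRNOG00000010905 for Dlx5 and ENSRNOG00000002607 for Sox9. Single cells were sequenced from the cochlea of untreated Sprague-Dawley rats at postnatal day 1 (P1), P7 and P14, with 1 library per stage. All 3 groups shared strain, tissue and the lack of treatment and differed in age, so stage and library cannot be told apart and no test between stages was made. The intervals given below are 95% intervals and cover counting error only.

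The barcodes with over 500 and under 5000 genes and under 25% of unique molecular identifiers (UMIs) on mitochondrial genes numbered 12779 at P1, 12581 at P7 and 5281 at P14. The labels aimed for 5000 cells per library and named the cell type as the greater epithelial ridge, the epithelium on the inner side of the young organ of Corti. Only 278, 217 and 79 of the kept cells at P1, P7 and P14 fell into the cluster named cochlear epithelium-like from Epcam and other markers, whereas 7003, 6770 and 2581 fell into 8 connective tissue-like clusters. The median cell held 6565 UMIs at P1, 6878 at P7 and 1614 at P14. Between 16 and 53 barcodes were shared by any pair of libraries. The P14 cells stood apart by depth and by cluster. Nearly all connective tissue-like P14 cells lay in clusters 6 and 12, which held at most 3 cells each from P1 and from P7. The class pooled clusters named from the connective tissue, cochlear mesenchyme and fibrocyte, cartilage, osteoblast or leptomeninges marker lists. Cluster 6 was named from the osteoblast list and cluster 12 from the leptomeninges list. The other clusters of the class, which held its P1 and P7 cells, were named from neither. The P14 class depended on the clustering. It fell from 2581 to 889 cells when the members were allowed among the variable genes and to 7 at resolution 0.4, and it held 2456 to 2592 cells under the other 4 settings, so the P14 values of the class below rest on the clusters as drawn here.

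Mesenchyme surrounds the developing otic epithelium and gives rise to the bony capsule and to the fibrocytes of the spiral ligament and spiral limbus. Pou3f4 is a POU-domain factor of this mesenchyme, known as an X-linked deafness gene, and Tbx18 is a T-box factor needed for its fibrocytes. Tbx15 is a T-box factor of skeletal and limb mesenchyme, Dlx5 and Dlx6 are neighbouring homeobox genes of the otic vesicle and of bone, and Sox9 is the high-mobility-group factor that drives cartilage genes and also acts in the otic epithelium.

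The sequences in front of the gene start are shown for the 3 genes that had an entry in the RefSeq promoter set (build GRCr8). This set held no entry for Dlx5, Dlx6 or Sox9. Each run holds the 250 bases before the start, 5′ to 3′ on the strand of the gene. Capitals mark CCAAT on either strand. The windows lie at chrX:79974558-79974807 on the plus strand for Pou3f4, at chr8:97559966-97560215 on the minus strand for Tbx18 and at chr2:189265123-189265372 on the plus strand for Tbx15.
Pou3f4: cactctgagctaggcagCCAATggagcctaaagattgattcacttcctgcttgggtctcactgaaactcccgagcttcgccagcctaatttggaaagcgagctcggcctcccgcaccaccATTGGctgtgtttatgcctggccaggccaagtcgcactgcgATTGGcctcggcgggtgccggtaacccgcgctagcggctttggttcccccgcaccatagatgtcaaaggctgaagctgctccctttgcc
Tbx18: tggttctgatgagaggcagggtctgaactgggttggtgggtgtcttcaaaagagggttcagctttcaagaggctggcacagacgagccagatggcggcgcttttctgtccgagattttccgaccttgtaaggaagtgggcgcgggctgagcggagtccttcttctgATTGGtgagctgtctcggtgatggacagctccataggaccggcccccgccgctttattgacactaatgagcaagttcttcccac
Tbx15: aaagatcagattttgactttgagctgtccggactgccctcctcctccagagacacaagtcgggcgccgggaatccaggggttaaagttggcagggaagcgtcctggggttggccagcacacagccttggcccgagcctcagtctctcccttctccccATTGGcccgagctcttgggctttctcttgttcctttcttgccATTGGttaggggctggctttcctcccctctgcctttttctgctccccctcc

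CCAAT occurred 3 times in the Pou3f4 window, beginning 233, 130 and 89 bases before the start. It occurred 1 time in the Tbx18 window, at 84 bases, and 2 times in the Tbx15 window, at 93 and 51 bases. The same letters on either strand were held by 34.0% of all 33469 promoter windows of this length, so their presence does not set these genes apart. The 3 windows held no match, on either strand, to TAATTA (the core bound by DLX factors, in 4.86% of all windows), TCACACC (a core bound by T-box factors, 3.22%), AACAAT (a SOX core, 10.3%), ATGCAAAT (the POU octamer, 1.56%), TATAAA (the TATA box, 12.9%) or GGGCGG (a GC box, 30.5%). This says only that these letters are not in these windows. With CCAAT the only motif found, no matches of different motifs overlapped. The share of G and C was 58.8% for Pou3f4, 55.6% for Tbx18 and 58.4% for Tbx15, against a median of 51.2% over all windows.

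Over whole libraries, Dlx5 and Sox9 were higher at P7 than at P1, Pou3f4 was lower at each later stage, and Tbx18 differed least. Levels are UMIs summed over cells and scaled to 1000000 UMIs (CPM), and the levels of different genes are not compared with each other. Pou3f4 stood at 423 CPM at P1 (interval 418.5 to 427), at 305 CPM at P7 (301 to 308) and at 83.0 CPM at P14 (77.8 to 88.4). Tbx18 stood at 316, 307 and 258 CPM. The log2 ratio of P7 to P1, computed with 1 CPM added to each level, was -0.47 for Pou3f4 and -0.043 for Tbx18. Dlx5 stood at 1.44 CPM at P1 (1.21 to 1.70), at 33.1 CPM at P7 (32.0 to 34.3) and at 8.42 CPM at P14 (6.83 to 10.3), so P7 held the highest of the 3 values. Sox9 stood at 72.2, 180.4 and 220.3 CPM in order of age. Tbx15 was rare in all 3 libraries, at 1.47, 2.57 and 5.41 CPM.

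By broad cell class, 4 of the 5 genes were carried mainly by connective tissue-like cells and, at P1 and P7, Tbx15 by pericyte and smooth muscle-like cells. Connective tissue-like clusters held 71.5% of all Pou3f4 UMIs at P1, 67.9% of Tbx18, 72.3% of Dlx5 and 76.1% of Sox9, while they held 51.1% of all UMIs of that library. At P7 the shares were 83.4%, 81.1%, 87.6% and 82.3%, against 55.8% of all UMIs. The log2 ratio of the level in connective tissue-like clusters to that in all other P1 cells was 1.26 for Pou3f4, 1.01 for Tbx18 and 1.58 for Sox9, and 0.74 for Dlx5. Thus 3 of the 5 genes lay above a log2 ratio of 1 and 0 below -1 at P1, where 2.81% and 12.0% of the 14036 genes with 100 or more UMIs did. At P7, 4 of the 5 lay above 1, where 6.35% of all genes did, with ratios of 1.98, 1.76, 1.87 and, for Dlx5, 2.37. Tbx15 had a log2 ratio of -2.11 at P7, where 10.5% of all genes lay below -1. The other P1 cells included the unnamed clusters 8 and 10, which held 15.0% and 7.95% of all Pou3f4 UMIs. Cluster 10 was led by Cenpf, Top2a and Mki67, markers of dividing cells, and the cell type list with its highest score was connective tissue. The summed level of the cochlear mesenchyme and fibrocyte markers was 9516 CPM in cluster 8 and 11588 CPM in cluster 10, each over its cells of all stages. It was 5278 CPM over all P1 cells outside the class and 16935 CPM in the class at P1. With a mitochondrial limit of 10% the P1 ratios of Pou3f4 and Tbx18 were 0.63 and 0.32, so neither then lay above 1.

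**Figure D1:**
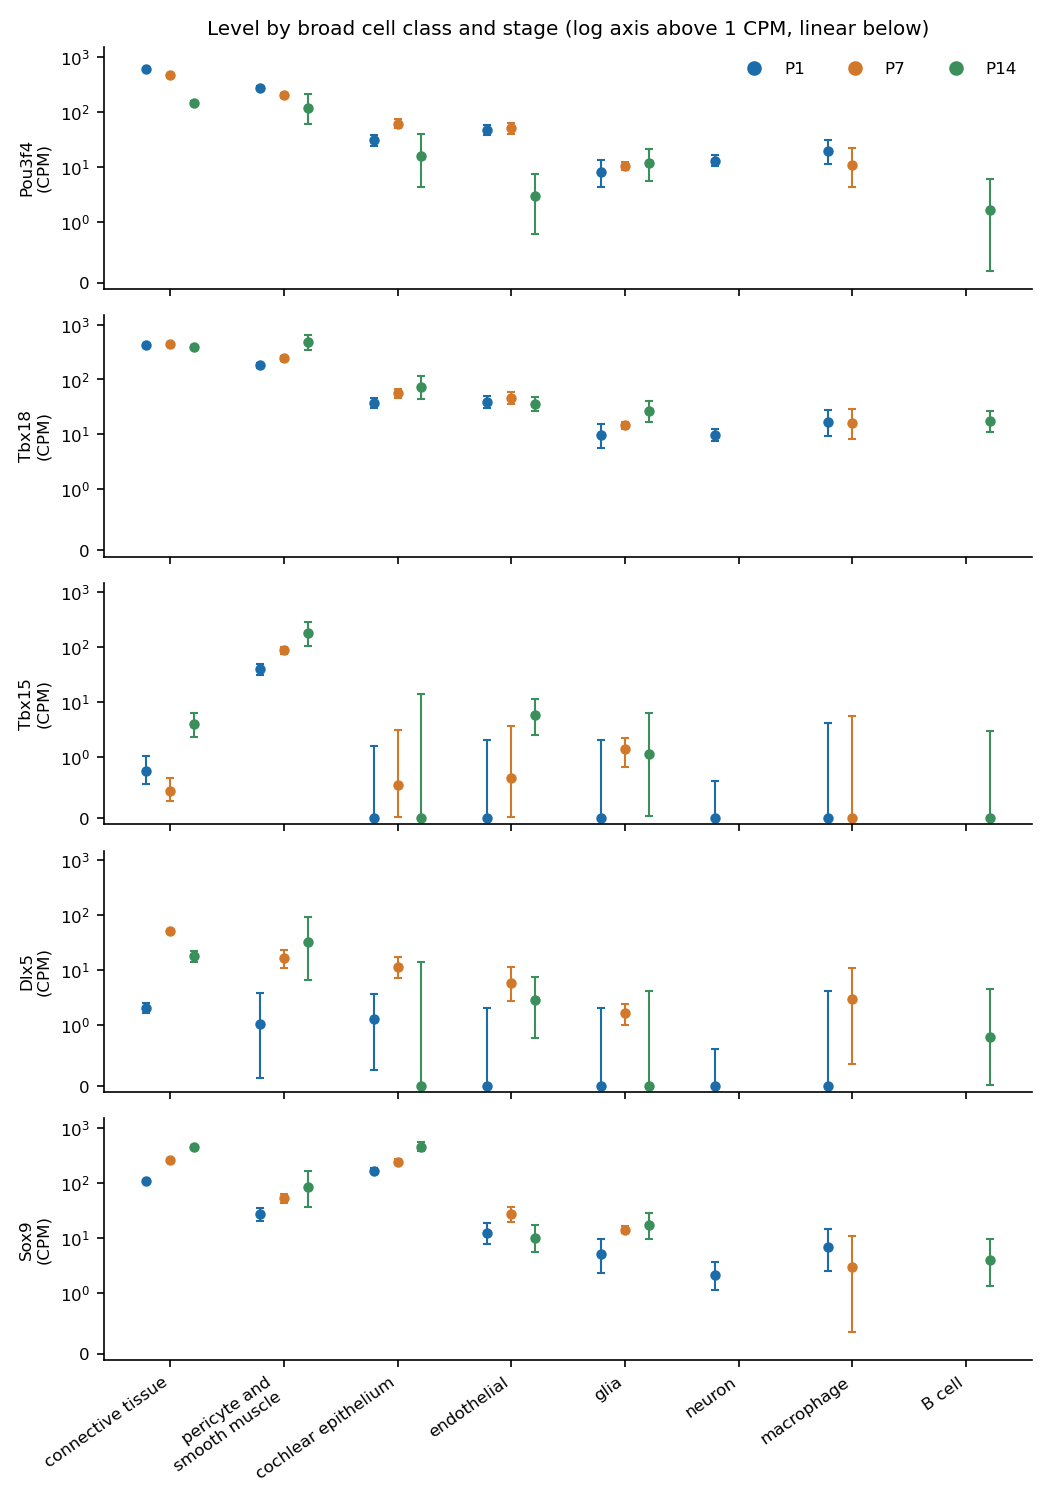
Level of each gene (CPM, log axis above 1 CPM and linear below) in 8 broad cell classes at P1, P7 and P14, where bars are exact Poisson 95% intervals and classes with under 50 cells at a stage are left out. Pou3f4 in connective tissue-like cells runs from 591 CPM at P1 to 145 at P14, and Tbx15 stands above 40 CPM in pericyte and smooth muscle-like cells only.

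Pou3f4 and Tbx18 were both highest in connective tissue-like cells and next in pericyte and smooth muscle-like cells at P1 and P7, while at P14 Tbx18 was the higher in the latter, with overlapping intervals. In connective tissue-like cells Pou3f4 stood at 591 CPM at P1, 455 at P7 and 145 at P14, and Tbx18 at 420.0, 446 and 389 CPM. In pericyte and smooth muscle-like cells Pou3f4 stood at 271, 197 and 117 CPM and Tbx18 at 181, 242 and 480.1 CPM. In cochlear epithelium-like cells the values were far lower, from 15.4 to 60.5 CPM for Pou3f4 and from 37.1 to 73.1 CPM for Tbx18. Glia-, macrophage- and neuron-like cells gave lower levels to read these against. Free RNA, doublets and low expression in them were not told apart. In glia-like cells Pou3f4 stood at 7.91 CPM at P1, 10.2 at P7 and 11.5 at P14, and Tbx18 at 9.61, 14.8 and 26.5 CPM. Macrophage-like cells held 19.3 and 10.5 CPM of Pou3f4 and 17.0 and 16.5 CPM of Tbx18 at P1 and P7, and the 288 neuron-like P1 cells held 12.9 and 9.91 CPM. All of these values lay below the connective tissue-like values of their stage.

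After each cell was thinned to 1000 UMIs, leaving out 37, 193 and 735 shallower cells at P1, P7 and P14, a Pou3f4 UMI was found in 43.1% of connective tissue-like cells at P1, 34.1% at P7 and 12.8% at P14. The unthinned shares were 92.7%, 88.5% and 20.03%. In glia-like cells the thinned shares were 1.12%, 1.01% and 0.314%, with median depths of 5672, 4636 and 1954 UMIs before thinning against 6521, 7282 and 1553 in connective tissue-like cells. A Tbx18 UMI was found in 32.9%, 35.3% and 29.2% of thinned connective tissue-like cells. At equal depth the share of connective tissue-like cells with Pou3f4 was therefore lower at each later stage and the share with Tbx18 was not.

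Sox9 marked both connective tissue-like and cochlear epithelium-like cells. Its level in connective tissue-like cells was 108 CPM at P1, 266 at P7 and 450.2 at P14, and in cochlear epithelium-like cells 169, 244 and 462 CPM. The intervals of the classes did not overlap at P1, but they did at P7, at 262 to 271 and 222 to 268 CPM, and at P14, at 431 to 470.1 and 383 to 552 CPM. Among other classes Sox9 was lower, at 27.1, 52.8 and 85.3 CPM in pericyte and smooth muscle-like cells and at 5.09, 14.1 and 17.3 CPM in glia-like cells. The thinned share of connective tissue-like cells with a Sox9 UMI was 10.2%, 22.3% and 30.01% in order of age, against 0%, 1.33% and 0.943% of glia-like cells. The 0% at P1 was 0 of 268 cells, whose exact binomial interval reached 1.37%.

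Tbx15 was concentrated in pericyte and smooth muscle-like cells (cluster 15, led by Rgs5, Ndufa4l2 and Kcnj8), the contractile cells of vessel walls. This cluster held 1.92% of all P1 UMIs and 52.8% of the Tbx15 UMIs, and 2.04% and 69.5% at P7. At P14 it held 0.805% and 27.0%, about as much Tbx15 as the 28.6% in connective tissue-like clusters. The log2 ratio of the cluster to all other cells was 4.60 at P1 and 5.62 at P7. At P1, 1 of the 5 genes lay above 1 in this contrast and 1 below -1 (Sox9, -1.40), where 6.43% and 15.2% of all genes did. At P7 the counts were the same, with Sox9 at -1.78 and with 6.21% and 12.8% of all genes. The level there was 40.4 CPM at P1 (76 UMIs, interval 31.8 to 50.5), 87.6 CPM at P7 (166 UMIs, 74.8 to 102) and 181 CPM at P14 (17 UMIs, 106 to 290.4). The P1 and P7 intervals did not overlap, and those of P14 and P7 did not overlap either, though P14 rested on 64 cells. In connective tissue-like cells Tbx15 stood at 0.778 CPM at P1 (39 UMIs), 0.443 at P7 (23 UMIs) and 3.95 at P14 (18 UMIs). At P1, no Tbx15 UMI was found in epithelium-, endothelial-, glia-, macrophage- or neuron-like cells, where 3 UMIs would stand for 1.28, 1.66, 1.70, 3.41 and 0.495 CPM. The only other cluster above 10 CPM was cluster 25 at P14, at 29.7 CPM, which met no naming rule and was led by Slco1a4, Abcb4 and Sox17. Scrublet, which marks likely doublets, marked 12.04% of cluster 15. All 13 connective tissue markers were detected in it, with a summed level of 3436 CPM, and all 11 markers of cochlear mesenchyme and fibrocytes, with 1861 CPM. Their part in the levels of Pou3f4, Tbx18 and Sox9 there was not tested.

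Dlx5 was close to the limit of detection at P1 in every class. Connective tissue-like cells held 102 UMIs at P1 (2.04 CPM), 2702 at P7 (52.1 CPM) and 81 at P14 (17.8 CPM). At P1, none was found in 165 endothelial-, 268 glia-, 107 macrophage- or 288 neuron-like cells. At P7 the level was 16.4 CPM in pericyte and smooth muscle-like cells (31 UMIs), 11.6 CPM in cochlear epithelium-like cells (21 UMIs), 5.91 CPM in endothelial-like cells (9 UMIs) and 1.62 CPM in glia-like cells (22 UMIs). After thinning, a Dlx5 UMI was found in 0.2002% of connective tissue-like cells at P1, 4.52% at P7 and 1.39% at P14, against 0.283% of glia-like cells at P7.

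**Figure D2:**
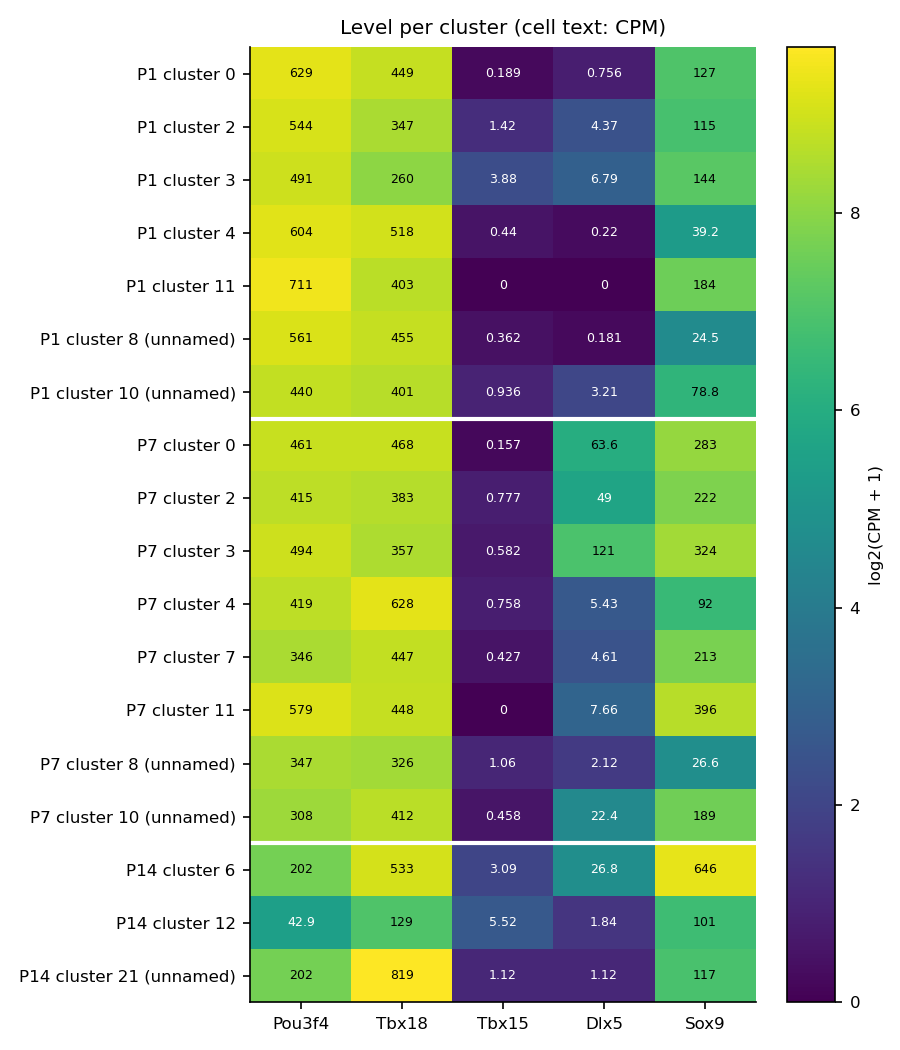
Level of each gene in the connective tissue-like clusters and in the unnamed clusters 8, 10 and 21 with 50 or more cells at a stage, colored by log2(CPM + 1), with the CPM written in each field. Dlx5 is highest in cluster 3 at P7, at 121 CPM, and Sox9 is lowest in clusters 4 and 8 at P1 and P7.

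Within connective tissue the genes split the clusters in different ways. Pou3f4 was highest in cluster 11 (led by Gcg, Car3 and Cnmd) at both P1 and P7, at 711 CPM (656 to 769.9) and 579 CPM (562 to 597), and its interval did not overlap that of the next cluster at either stage. At P1 it was followed by cluster 0 at 629 CPM and cluster 4 at 604 CPM, whose intervals overlapped, and then by the unnamed cluster 8 at 561, cluster 2 at 544 and cluster 3 at 491 CPM. The 5 connective tissue-like clusters with 50 or more P1 cells thus lay within 491 to 711 CPM. Tbx18 was highest in cluster 4 (led by Aldh1a2, Calb2 and Kcnk2), at 518 CPM at P1 and 628 CPM at P7, again with no overlap with the next. Cluster 3 was the lowest of the connective tissue-like clusters for Tbx18 at both stages, at 259.9 and 357 CPM. At P7 this interval overlapped that of its upper neighbour, cluster 2, at 383 CPM.

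Sox9 was lower in cluster 4 than in the other connective tissue-like clusters with 50 or more cells at P1 and P7. It stood at 39.2 CPM at P1 and 92.0 CPM at P7 in cluster 4, and at 24.5 and 26.6 CPM in the unnamed cluster 8 (led by Sp5, Cav1 and Olfm1). In clusters 0, 2, 3 and 11 it stood between 115 and 184 CPM at P1 and between 222 and 396 CPM at P7. Cluster 7, which had 40 cells at P1, stood at 213 CPM at P7. Cluster 11 was the highest at both stages. At P1 its interval overlapped that of the cochlear epithelium-like cluster, and at P7 its interval of 382 to 411 CPM lay clear of that of cluster 3. Cluster 4 therefore combined the highest Tbx18 with the lowest Sox9 of the connective tissue-like clusters with 50 or more cells. Cluster 8 held Pou3f4 and Tbx18 at 561 and 455 CPM at P1 with little Sox9.

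Dlx5 set cluster 3 apart. This cluster was led by Dlx5, Sfrp4 and Gdf10, although all members were left out of the genes used for clustering. It held 143 cells at P1 and 2291 at P7, and at P7 it carried 67.5% of all Dlx5 UMIs with 18.5% of all UMIs. Dlx5 at P7 stood at 121 CPM in cluster 3 (116 to 126), 63.6 CPM in cluster 0 (57.5 to 70.1) and 49.0 CPM in cluster 2 (37.6 to 62.7). The intervals of clusters 0 and 2 overlapped. In clusters 4, 7 and 11 it stood at 5.43, 4.61 and 7.66 CPM, near the 5.91 CPM of endothelial-like cells of that library.

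At P14, cluster 6 (led by Coch, LOC100911545 and Dmp1) held most UMIs of 4 of the genes, namely 61.0% of Pou3f4, 51.6% of Tbx18, 79.6% of Dlx5 and 73.4% of Sox9, with 25.05% of all UMIs. In it Sox9 stood at 646 CPM, Tbx18 at 533, Pou3f4 at 202 and Dlx5 at 26.8 CPM. Cluster 12 (led by Ptgds, Slc7a11 and Slc16a11) had lower levels, at 101, 129, 42.9 and 1.84 CPM. The unnamed cluster 21 (led by Clec3b, Gpcpd1 and Rarres1) had the highest Tbx18 of any cluster at P14, at 819 CPM (761 to 880.8), beside 202 CPM of Pou3f4 and 117 CPM of Sox9. The P14 connective tissue-like cells differed from those of P7 in the levels of several marker lists. The summed level of the 11 cochlear mesenchyme and fibrocyte markers was 20365.5 CPM at P7 and 15671 at P14. That of the 13 connective tissue markers was 6085 and 13897.5 CPM, and that of the 8 cartilage markers 1495 and 702 CPM. The summed level of the 8 osteoblast markers was 406 CPM at P7 and 7737 at P14, and that of the 6 leptomeningeal markers was 42.8 and 26892 CPM. From P7 to P14 in this class, 1 of the 5 genes lay above a log2 ratio of 1 (Tbx15, 1.78) and 2 lay below -1 (Pou3f4, -1.65, and Dlx5, -1.50), where 15.9% and 9.40% of all genes did. Stage, library and cluster make-up cannot be told apart there.

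From P1 to P7, libraries of like depth, Dlx5 and Sox9 were higher in connective tissue-like cells, Pou3f4 was lower and Tbx18 nearly level. The log2 ratio of P7 to P1 over the class was 4.13 for Dlx5 (3.93 to 4.32), 1.30 for Sox9 (1.26 to 1.35), -0.38 for Pou3f4 (-0.40 to -0.35) and 0.087 for Tbx18 (0.060 to 0.11). Thus 2 of the 5 genes lay above 1 and 0 below -1, where 7.74% and 4.13% of all 14036 genes did. The median over all genes was 0.10. The ratio of Dlx5 was 1.501 when 20 principal components were used. The class then held 4340 P7 cells, near the 4391 at resolution 1.2, and the reason for the lower ratio was not tested. With all kept cells in place of the class the ratio of Tbx18 was -0.043, so its direction depended on the cells included.

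**Figure D3:**
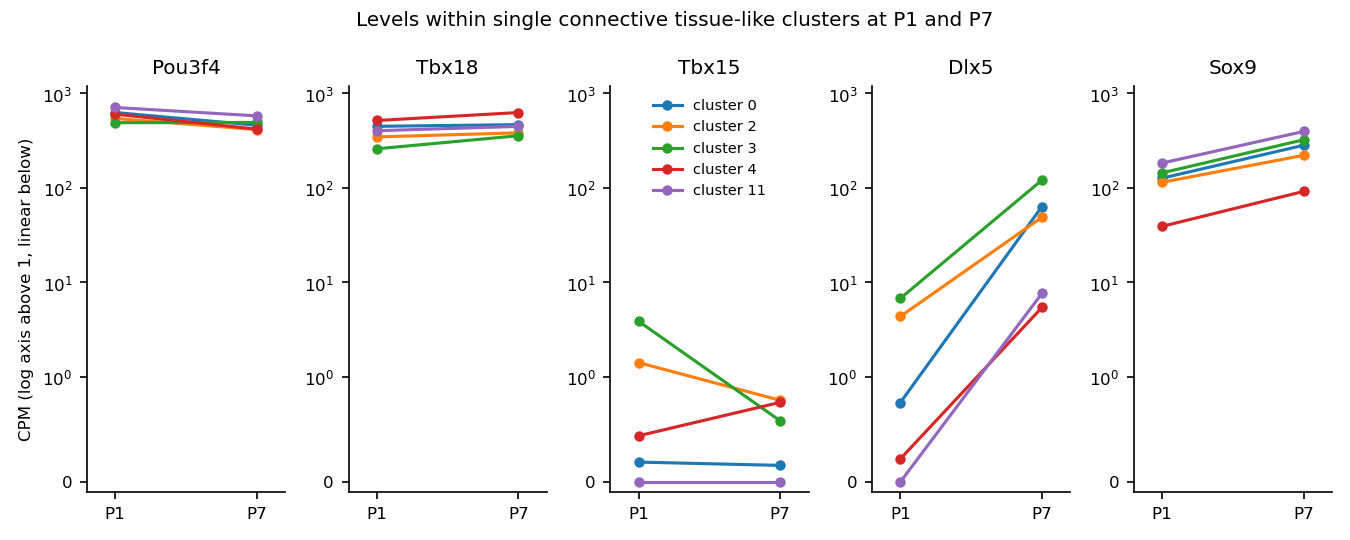
Level of each gene at P1 and P7 (CPM, log axis above 1 CPM and linear below) in the 5 connective tissue-like clusters with 50 or more cells at both stages, 1 line per cluster. All 5 lines rise for Dlx5 and for Sox9, and for Dlx5 they end between 5.43 and 121 CPM.

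Within clusters the number of cells that each cluster gave does not enter. In the 5 connective tissue-like clusters with 50 or more cells at both stages, Sox9 was higher at P7 in 5 of 5, by log2 ratios of 0.94 to 1.21, with every interval above 0. Pou3f4 was lower in 4 of 5, with ratios of -0.53 to -0.30, and differed by 0.0097 in cluster 3. Tbx18 was higher with an interval above 0 in 3 of 5, with ratios from 0.059 to 0.46 over the 5 clusters. Dlx5 was higher in 5 of 5. It was 84.1-fold higher in cluster 0 (16 UMIs at P1 and 404 at P7, exact interval 51.1 to 148), 17.8-fold in cluster 3 (7 and 2081 UMIs, 8.64 to 44.4) and 11.2-fold in cluster 2 (77 and 63 UMIs, 7.91 to 15.9). In cluster 4 the ratio was 24.7 with a wide interval of 6.44 to 211, since P1 gave 2 UMIs. In cluster 11 no Dlx5 UMI was found among 102 P1 cells and 57 among 771 P7 cells, at least 2.18-fold higher when the P1 floor is set at 3 UMIs over the cluster. Dlx5 was also higher in the pericyte and smooth muscle-like cluster (2 and 31 UMIs) and in the unnamed clusters 10 and 14 (24 and 98, 4 and 145 UMIs), the latter a cluster of which Scrublet marked 86.3%. In clusters 0, 3, 4 and 11, 2 of the 5 genes lay above a log2 ratio of 1, where 8.46%, 12.9%, 7.79% and 13.0% of all genes did, and in cluster 2 it was 1, where 10.2% did. Below -1 lay Tbx15 in cluster 3, from 4 UMIs at P1, and none in clusters 0, 2, 4 and 11. Of all genes, 7.79% lay below -1 in cluster 3 and 5.54%, 9.39%, 4.51% and 8.51% in clusters 0, 2, 4 and 11. Over all 19 clusters with 50 or more cells at both stages, Sox9 was higher at P7 in 16 and lower in 0. For Dlx5 the counts were the same, and for each gene 3 intervals included 0. The higher P7 values were thus not particular to connective tissue-like clusters. Pou3f4 was higher in 4 of the 19 and lower in 10, and Tbx18 was higher in 8 and lower in 2. Whether free RNA from cluster 3 adds to the low P7 values of clusters 4 and 11 was not tested.

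Co-detection in single cells was measured after thinning to 3000 UMIs, so that deep cells do not hold more genes by depth alone. This left 6795 connective tissue-like cells at P1 and 6469 at P7. A Pou3f4 UMI was found in 78.5% of them at P1 and 69.3% at P7, a Tbx18 UMI in 66.2% and 69.4%, a Sox9 UMI in 25.6% and 49.8%, and a Dlx5 UMI in 0.559% and 9.66%. Both Pou3f4 and Tbx18 were found in 3603 P1 cells (53.0%) and 3116 P7 cells (48.2%). At P1 Tbx18 was found in 67.6% of cells with Pou3f4 (66.3 to 68.8) and 61.3% of cells without it (58.8 to 63.8). At P7 the shares were 69.5% and 69.3% with overlapping intervals. Both genes were thus found in over 50% of cells of the class at P1 and in fewer at P7, where the shares with Tbx18 differed by less than counting error.

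Sox9 was found more often beside Pou3f4 at P1 and P7 over the class. At P1 the share of cells with Sox9 was 26.8% among cells with Pou3f4 (25.6 to 28.0) and 21.1% among cells without it (19.0 to 23.3), and at P7 it was 51.2% (49.7 to 52.7) and 46.6% (44.4 to 48.8). The log2 ratios of these shares were 0.34 and 0.14. Within cluster 3 at P7 the shares were 58.7% and 60.4% with overlapping intervals, and thinning to 1000 UMIs gave a log2 ratio over the class of 0.024. For Tbx18 and Sox9 the shares had overlapping intervals, at 26.0% and 24.9% at P1 and 49.7% and 50.03% at P7. At P14, at 1000 UMIs, Sox9 was found in 44.6% of cells with and 27.9% of cells without Pou3f4, and within cluster 6 in 49.3% and 40.6%.

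Dlx5 was found less often in cells with Tbx18 than in cells without it at P7. A Dlx5 UMI was found in 8.62% of cells with Tbx18 (7.81 to 9.48) and in 12.03% of cells without it (10.6 to 13.5), a log2 ratio of -0.48. Within cluster 3, where Dlx5 was found in 477 of 2216 cells, the shares were 20.9% and 22.7% with overlapping intervals, so the difference over the class was not seen inside its main source at this depth. Over all kept P7 cells the direction turned, with a log2 ratio of 0.64. Dlx5 and Sox9 were both found in 336 of 6469 P7 cells. Sox9 was found in 53.8% of cells with Dlx5 (49.8 to 57.7) and in 49.4% without it (48.1 to 50.7). Cluster 3 held 477 of the 625 cells with Dlx5. Within it the direction turned, with Sox9 in 53.9% of cells with Dlx5 and in 60.6% without it. With a mitochondrial limit of 10% the log2 ratio over the class turned from 0.12 to -0.061. Tbx15 was found in 15 thinned connective tissue-like cells at P1 and 6 at P7, too few for a pair to be described. In the pericyte and smooth muscle-like cells at P7, 60 of 254 thinned cells held Tbx15. Among the 119 cells with Tbx18, 26.9% held Tbx15 (19.2 to 35.8), against 20.7% of the others (14.2 to 28.6).

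**Figure D4:**
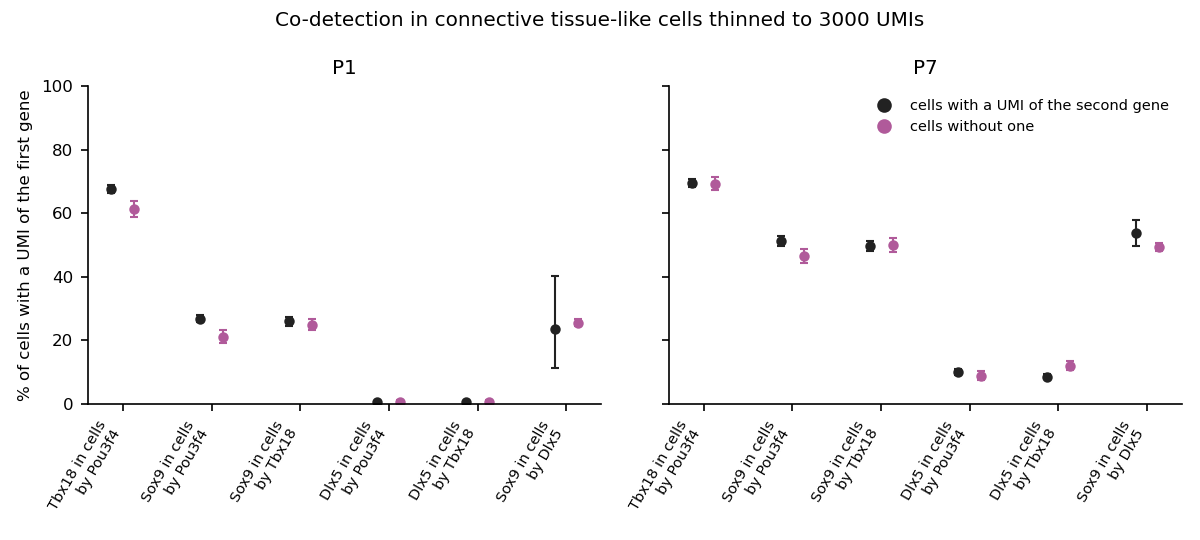
Share of connective tissue-like cells, thinned to 3000 UMIs, with a UMI of the gene named first on each axis label, among cells with (black) and without (purple) a UMI of the gene named second, where bars are exact binomial 95% intervals. Sox9 is found in more cells with Pou3f4 than without at both stages, and Dlx5 in fewer cells with Tbx18 at P7.

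The number of the 5 genes found per connective tissue-like cell was higher at P7 than at P1. At 3000 UMIs, 3 or more were found in 980 and 5 P1 cells (3 and 4 genes, 14.4% and 0.0736%) and in 1710 and 157 P7 cells (26.4% and 2.43%). In 0 cells were all 5 found. None was found in 6.61% of these cells at P1 and 4.44% at P7. In the other cells none was found in 49.6% of 5221 cells at P1 and 65.4% of 4890 at P7, and 2 were found in 23.6% and 11.1%. At P14 only 178 connective tissue-like cells reached this depth, of which 34.8% held none.

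Over the 27 clusters with 50 or more cells, the log2 level of Pou3f4 ran with that of Tbx18 (Pearson r of 0.916). Tbx18 and Sox9 gave 0.814, Pou3f4 and Sox9 0.757, and Dlx5 and Sox9 0.725. Tbx15 gave at most 0.266 with any other member. These values are descriptions, since clusters share libraries and depth. Among the 14036 genes, the patterns most like Pou3f4 were those of Nkx6-1 (0.953), Twist1 (0.941) and Nf1x (0.919), and those most like Tbx18 were Pou3f3 (0.967), Btnl3 (0.933) and Twist1 (0.930). For Tbx15 they were Mylk (0.902), Mrvi1 (0.888) and Higd1b (0.886), of which Mylk, the myosin light chain kinase, is a contractile gene. For Dlx5 they were Col9a1 (0.823), Adamts9 (0.815) and Ccn4 (0.813). For Sox9 they were Kazald1 (0.940), Ptx3 (0.938) and Chsy1 (0.915).

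Of 76 other transcription factors of the otic capsule, skeleton and otic epithelium, 74 had a row and 48 passed the count filter. At P1, 12 lay above a log2 ratio of 1 in connective tissue-like clusters against other cells and 15 below -1, with a median of 0.13 against -0.096 over all genes, where 2.81% and 12.0% of all genes lay past these limits. At P7 24 lay above and 12 below, with a median of 1.00 against 0.019 and with 6.35% and 10.5% of all genes. The 5 with the highest level in the class at P1 were Foxc1 (257 CPM), Ebf1 (233), Twist1 (188), Foxd1 (146) and Nr2f2 (116). Their log2 ratios to other P1 cells were 1.35, 0.53, 1.07, 1.68 and -0.35, so Nr2f2 was not higher in the class. From P1 to P7 within the class, 9 of the 48 lay above 1 and 2 below -1, where 7.74% and 4.13% of all genes did. The 9 included Sox8 (9.84 to 38.7 CPM), a relative of Sox9, Pou3f1 (3.81 to 17.9 CPM), a relative of Pou3f4, and Runx2 (5.57 to 16.0 CPM), the bone factor, named here after their values were seen. The 2 lower were Sox11 (26.5 to 12.2 CPM) and Foxp1 (39.6 to 18.2 CPM).

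Of 12 cartilage genes that Sox9 is known to activate, 10 passed the count filter. Col2a1, Acan, Matn1, Hapln1, Comp, Cnmd, Col9a1 and Col9a3 were also among the markers from which the clusters were named. The counts against other cells are therefore partly set by how the class was named. Against other cells at P1, 7 of the 10 lay above a log2 ratio of 1 and 0 below -1, with a median of 1.38, where 2.81% and 12.0% of all genes did. At P7, 9 lay above 1 and 1 below -1 (Comp, a cartilage matrix protein, -1.57), where 6.35% and 10.5% of all genes did. From P1 to P7 in the class 4 lay above 1, namely Col9a2 (1.24), Col11a2 (1.93), Acan (1.32) and Cnmd (1.33), and 0 below -1, with a median of 0.77, where 7.74% and 4.13% of all genes did. This did not hold in each cluster. In cluster 0, 1 lay above 1 and 1 below -1, with a median of 0.010, and in the other 4 clusters the medians lay between 0.21 and 1.00. Cnmd, which codes for the cartilage protein chondromodulin, stood at 268 CPM at P1 and 63.4 CPM at P7 in cluster 0 (-2.06) and had a ratio of -0.70 in cluster 3. Over the class, Col2a1, the main cartilage collagen, had a ratio of 0.69 and Col9a3 one of -0.37. From P7 to P14, 2 lay above 1 and 5 below -1, where 15.9% and 9.40% of all genes did, and Sox9 had a ratio of 0.76.

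At 3000 UMIs per cell, 7 of the 12 were higher in connective tissue-like cells with a Sox9 UMI than in those without, at P1 (1739 and 5056 cells) as at P7 (3222 and 3247 cells), with intervals above 0, and 0 were lower. They were Col2a1, Col9a1, Col9a2, Col9a3, Col11a1, Col11a2 and Cnmd, with ratios of 0.095 to 0.45 at P1 and 0.43 to 0.83 at P7. No share over all genes is given for this split, so the counts cannot be read as particular to these genes. Within the 2 clusters examined the medians over the 12 genes were -0.11 and 0.078, against 0.17 and 0.44 over the class. These medians include genes with very few UMIs, such as Matn1 and Comp. In cluster 0 at P1, 2 were higher (Col9a1, 0.074, and Acan, from 3 UMIs) and 2 lower (Col9a2, -0.16, and Col11a1, -0.29). In cluster 3 at P7, 5 were higher and 0 lower, with the largest ratio among these 0.26 for Cnmd.

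**Figure D5:**
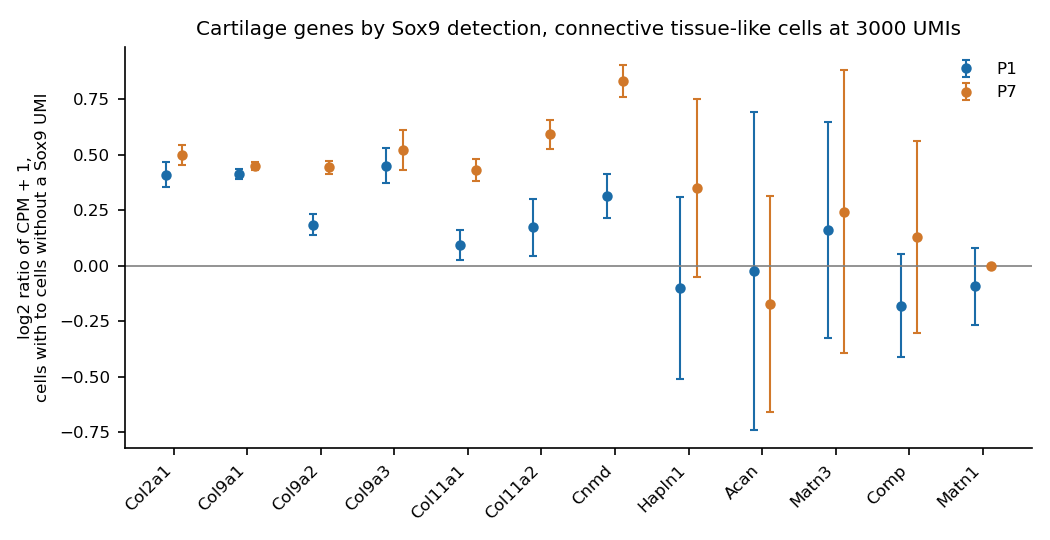
Log2 ratio of the level (CPM + 1) of 12 cartilage genes in connective tissue-like cells with to cells without a Sox9 UMI at 3000 UMIs per cell, at P1 and P7, with 95% counting intervals. The 7 genes at the left lie above 0 at both stages, up to 0.83 for Cnmd at P7. The intervals of the other 5 include 0, but Matn1, Comp and Matn3 had too few UMIs to show a difference. At P1 Matn1 had 0 UMIs in cells with Sox9 and 1 in cells without.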

How the data were processed

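Cochlear cells of 3 stages were measured, 1 library each. The deposited UMI counts per gene and cell were made by the authors with Cell Ranger 3.1.0 (per the file headers) on the rat build rn6, with Seurat 3.1.1 also in the submitters' processing notes. Animals within a library cannot be told apart. Barcodes with over 500 and under 5000 genes, 500 or more UMIs and under 25% mitochondrial UMIs were kept. Clustering used Seurat 5.3.0 under R 4.3.3. It took 10 principal components of 2000 variable genes, none of them a member, at resolution 0.8, and clusters were named from marker lists. Doublets were marked with Scrublet in scanpy 1.11.5 and kept. It marked 4.87% and 6.16% of P1 and P7 cells, and at 0.0379% it did not work at P14. Levels were summed counts scaled to 1000000 UMIs (CPM) with exact Poisson intervals, shares had exact Clopper-Pearson intervals, and ratios were called past a log2 value of 1. Named genes were the members, the 5 other transcription factors highest at P1, the cartilage targets, the 3 genes most like each member, and those said to be named later. Functions were tested on simulated data. Alternatives changed filters, clustering, scaling and depth. Members and lists were chosen with earlier results of these data known, and the rule for naming clusters after clusters and values were seen. Python 3.11.15, numpy 2.4.6, scipy 1.17.1, pandas 2.3.3 and matplotlib 3.10.9 were used.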

Additional observations from a re-analysis of the deposited data

Results flagged for a closer look

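In cochlear epithelium-like cells Pou3f4 went the opposite way from connective tissue-like cells between P1 and P7. Its log2 ratio of P7 to P1 was 1.00 (0.58 to 1.42, from 70 UMIs at P1 and 110 at P7), against -0.38 in connective tissue-like cells. The summed level of the cochlear mesenchyme and fibrocyte markers in the epithelium-like cluster was 5793 CPM, and its part in the Pou3f4 level was not tested. Tbx15 likewise had a log2 ratio of 1.10 in pericyte and smooth muscle-like cells (0.72 to 1.48, from 76 and 166 UMIs), against -0.30 in connective tissue-like cells. With 1 library per stage neither difference between classes was tested.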

How the results depend on the processing

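No paired analysis was possible because each stage had 1 library and no replicate numbers were shared. Of 141 alternative values, 79 stayed within the counting interval of the reported value (for counts of genes, within 1.5 times), 58 moved outside it and 4 turned direction. Causes were not tested. The depth of P14 limits its low genes.

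For the P7 to P1 log2 ratio in connective tissue-like clusters, a mitochondrial limit of 10% gave 0.0049 for Tbx18, 3.77 for Dlx5 and 1.25 for Sox9. Resolution 0.4 gave -0.35 for Pou3f4, and resolution 1.2 gave 0.044 for Tbx18, 3.56 for Dlx5 and 1.39 for Sox9. With 20 principal components the values were -0.43 for Pou3f4, 0.18 for Tbx18, 1.501 for Dlx5 and 1.11 for Sox9. The mean of the CPM of each cell gave -0.42 for Pou3f4, and 10 CPM added gave 2.37 for Dlx5 and 1.23 for Sox9. Over all kept cells the values were -0.47 for Pou3f4 and 3.81 for Dlx5, and Tbx18 and Tbx15 turned to -0.043 and 0.53. Thinning to 1000 UMIs gave -0.44 for Pou3f4 and -0.89 for Tbx15. For 2 settings chosen after seeing the data, equal weight per cluster gave -0.33 for Pou3f4, 0.22 for Tbx18, 3.58 for Dlx5 and 1.11 for Sox9, and counting clusters 8 and 10 as connective tissue gave 0.060 for Tbx18 and 1.48 for Sox9.

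For connective tissue-like against other P1 cells, the 10% limit gave 0.63 for Pou3f4 and 0.32 for Tbx18. Members allowed among the variable genes gave 1.22 and 0.97. The mean of cells gave 1.40, 1.12, -1.14 and 1.73 for Pou3f4, Tbx18, Tbx15 and Sox9. Clusters 8 and 10 counted in gave 2.86, 2.69 and -1.28 for Pou3f4, Tbx18 and Tbx15. Those clusters were chosen with their Pou3f4 and Tbx18 levels known, so the higher ratios follow from the choice. Leaving out Scrublet-marked cells gave 1.73 for Sox9.

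Over whole libraries, the 10% limit gave P7 to P1 ratios of -0.42 for Pou3f4, 3.96 for Dlx5 and 1.36 for Sox9, and P14 to P1 ratios of -2.45 for Pou3f4, -0.40 for Tbx18 and 1.51 for Sox9. The mean of cells gave -0.60, -0.12 and 1.18 for Pou3f4, Tbx18 and Sox9 at P7, and -2.14, -0.075 and 1.87 at P14.

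For co-detection, cells not thinned gave log2 ratios of 0.39 and 0.18 for Pou3f4 with Tbx18 at P1 and P7, and 0.65 and 0.37 for Pou3f4 with Sox9. All kept cells gave 1.15 and 1.08, and 1.10 and 1.11. Thinning to 1000 UMIs gave 0.024 for Pou3f4 with Sox9 at P7. At P7 all kept cells turned Tbx18 with Dlx5 to 0.64 and gave 0.62 for Dlx5 with Sox9, which the 10% limit turned to -0.061.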
